A study of Mus musculus with 12 samples.

Results

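Mitochondrial ribosomal protein genes were described in mouse cells labelled as knockdown or conditional knockout of Phb, which encodes prohibitin, and in their controls. A gene belonged to the group if its symbol was Mrpl or Mrps followed by a number, with or without 1 more letter. The rule found 78 genes, 49 of the large subunit (Mrpl) and 29 of the small subunit (Mrps) by name, among 24600 gene names in the GC2 table and 37637 in the spermatocyte table, 39985 names in both together. Where a symbol stood on several rows, the row with the highest mean was used. Every symbol had a row in both tables.

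The 12 RNA-seq libraries form 4 groups of 3: Phb knockdown GC2 cells, control GC2 cells, Phb conditional knockout spermatocytes and control spermatocytes. GC2 is an immortalised mouse line labelled as spermatocyte and bought from a cell repository. The primary cells were sorted by flow cytometry with a Hoechst DNA dye from enzyme-digested testis tubules. The sources used here do not give the knockdown method, the Cre driver, the ages of the mice, or the cultures or animals behind each library. The p-values therefore cover only how these libraries differed, which may be technical.

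The mitochondrial ribosome is built in the mitochondrial matrix from ribosomal RNAs encoded in mitochondrial DNA and from proteins that are encoded in the nucleus, made in the cytosol and imported. It translates the oxidative phosphorylation subunits encoded in mitochondrial DNA, and its large subunit is held at the inner membrane. Prohibitin and its partner Phb2 form ring-shaped complexes in that membrane and bind the m-AAA protease, which in yeast and mouse cleaves newly imported Mrpl32 before it joins the large subunit.

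Values are FPKM, sequenced fragments per unit of transcript length and of library size. FPKM has no correction for composition, so a class of RNA that takes a larger share lowers all others. Fold changes are knockdown or knockout over control in log2(FPKM + 1), where changes of genes at low levels come out too small. A gene passed the test at an adjusted p under 0.05 in limma, two-sided, with Benjamini-Hochberg adjustment over all rows tested. Phb had 22.66, 18.37 and 19.02 FPKM in knockdown and 56.62, 53.99 and 52.36 FPKM in control GC2 cells. Its mean was 20.0 ± 2.31 FPKM in knockdown and 54.3 ± 2.15 FPKM in control GC2 cells (SD, n = 3 each), a log2 fold change of -1.40 (limma adjusted p = 0.00062). In knockout spermatocytes it was 11.6 ± 0.241 FPKM and in control spermatocytes 13.3 ± 0.634 FPKM (SD, n = 3 each), a log2 fold change of -0.18 (limma adjusted p = 0.0074). That fall no longer passed after median centring (-0.02), quantile normalization (-0.07) or removal of the mitochondrially encoded rows (-0.12). That removal was followed by scaling the libraries to the same FPKM total. The labelled cell types were checked against their markers. Of 10 pachytene and diplotene spermatocyte markers, 5 had a row in GC2 cells and none was tested, with Ldhc, Tdrd6, Ybx2 and Clgn under 1 FPKM in all 6 libraries, and their sum was 0.16 to 4.83 FPKM in knockdown and 0.05 to 0.08 FPKM in control libraries. The other marker with a row, the testis chaperone gene Hspa2, had 0, 4.64 and 4.68 FPKM in knockdown libraries and was listed at 0 in each control library. In spermatocytes the summed level of the same 10 markers was 61.69 to 65.56 FPKM in knockout and 2715 to 2755.24 FPKM in control libraries. The 10 round spermatid markers summed to 7.03 to 9.46 FPKM in knockout and 832.88 to 867.72 FPKM in control libraries, and the 10 leptotene and zygotene spermatocyte markers to 336.72 to 343.72 FPKM in knockout and 386.01 to 403.28 FPKM in control libraries. The 10 Sertoli cell markers summed to 4077.59 to 4250.33 FPKM in knockout and 932 to 1039.56 FPKM in control libraries, and the 10 Leydig cell markers to 435.75 to 463.21 FPKM in knockout and 71.04 to 73.65 FPKM in control libraries. Mitochondrially encoded rows made up 17.1% to 19.5% of each knockout library's FPKM and 12.2% to 13.6% of each control library's. The part of these shifts in any spermatocyte result below was not tested. In bulk samples, fewer cells of a type and less RNA per cell cannot be told apart.

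Summed over the 49 genes, the large subunit held 0.401% ± 0.0146 of the FPKM total in knockdown and 0.418% ± 0.0033 in control GC2 cells (SD, n = 3 each). The small subunit held 0.195% ± 0.0114 in knockdown and 0.211% ± 0.0075 in control GC2 cells. The lowest control library of the large subunit, at 0.416%, lay above the highest knockdown library, at 0.409%, while for the small subunit the highest knockdown library (0.2042%) and the lowest control library (0.2048%) nearly touched.

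In spermatocytes the large subunit's share of the total was lower in knockout and the small subunit's share was higher. The large subunit held 0.230% ± 0.0039 in knockout and 0.267% ± 0.0062 in control spermatocytes (SD, n = 3 each). The small subunit held 0.106% ± 0.0018 in knockout and 0.0970% ± 0.0018 in control spermatocytes. Neither pair of groups overlapped, and both directions were the same when mitochondrially encoded rows were taken out of the total (large subunit 0.280% in knockout and 0.307% in control, small subunit 0.130% in knockout and 0.111% in control). The ratio of large to small summed FPKM, which does not depend on the total, was 2.165, 2.144 and 2.158 in the knockout libraries and 2.764, 2.801 and 2.706 in the control libraries. In GC2 cells the same ratio was 2.002, 1.930 and 2.243 in knockdown and 2.032, 2.012 and 1.899 in control libraries, which overlap. Such sums follow the few most abundant genes, so the genes were also taken one by one.

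**Figure D1:**
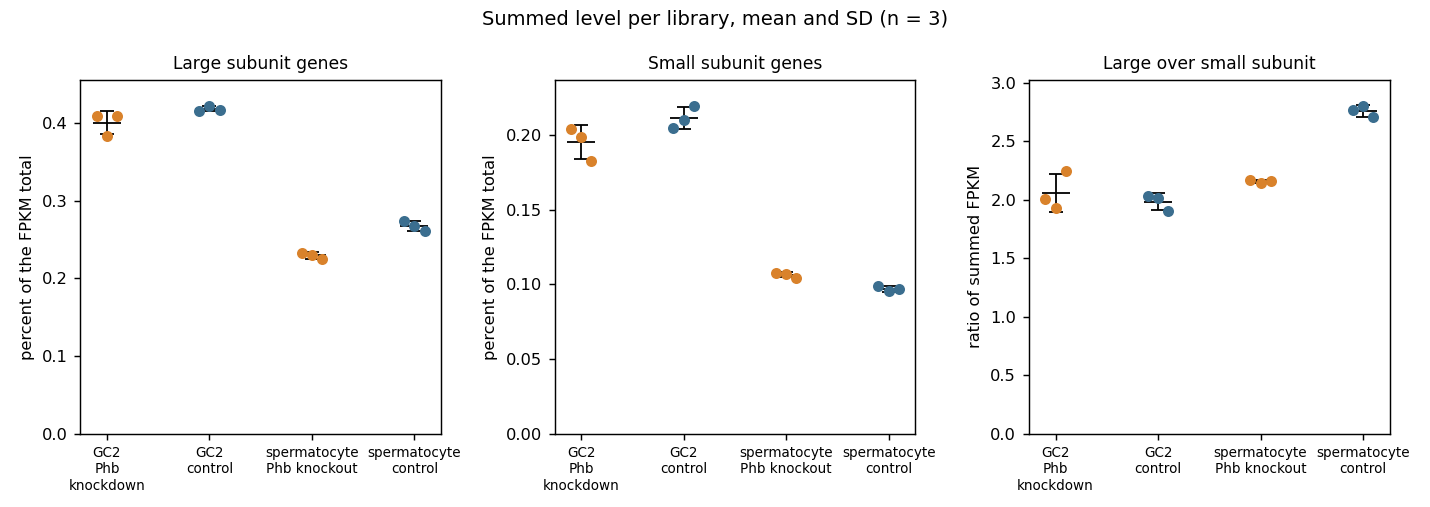
Summed FPKM of the 49 large subunit genes (left) and the 29 small subunit genes (middle) as a percentage of each library's FPKM total, and the ratio of both sums (right). Points are libraries, bars are mean and SD over 3. The knockout spermatocyte libraries have a ratio of 2.144 to 2.165, all below the control libraries at 2.706 to 2.801.

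The most abundant genes differed between the kinds of sample. In GC2 cells they were Mrpl18, Mrpl16 and Mrpl12 of the large subunit and Mrps21, Mrps7 and Mrps23 of the small. Mrpl18 had 116.27, 100.81 and 105.3 FPKM in knockdown and 96.91, 87.61 and 56.36 FPKM in control libraries, with no overlap, and did not pass the test (log2 fold change 0.45, limma adjusted p = 0.20). In spermatocytes they were Mrpl24, Mrpl54 and Mrpl20 and again Mrps21, Mrps23 and Mrps7, by the mean over all 6 libraries. Mrpl24, a large subunit protein with a bacterial counterpart, had 33.15, 34.11 and 32.63 FPKM in knockout and 55.5, 55.1 and 52.16 FPKM in control spermatocytes. Levels between genes can be read against each other because FPKM is per length, but levels between the 2 tables were not compared, since they hold different sets of rows. Control means ran over members from 1.28 to 80.3 FPKM in GC2 cells.

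In GC2 cells, 14 of the 77 tested members fell and 1 rose after Phb knockdown. Over all 10791 rows tested 24.5% passed: 13.9% fell and 10.7% rose, beside 18.2% of the members that fell and 1.30% that rose. Falls were found in both subunits: 9 of 48 large subunit genes fell and 0 rose, and 5 of 29 small subunit genes fell and 1 rose. The median log2 fold change was -0.22 for the large and -0.20 for the small subunit, beside -0.04 for all rows. The value was negative in 58 of the 77 members, beside 5906 of all 10791 rows. In 32 of the 77 (41.6%) the groups did not overlap, beside 44.9% of all rows. The count of falls changed when 1 library was left out: it was 8 without the third control library, 9 without the second control library and 9 without the second knockdown library. Such fits have fewer libraries for every row. The shares of all rows in them are not given here, so these counts cannot be read against 13.9%. Mrpl57 was too low to test.

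**Figure D2:**
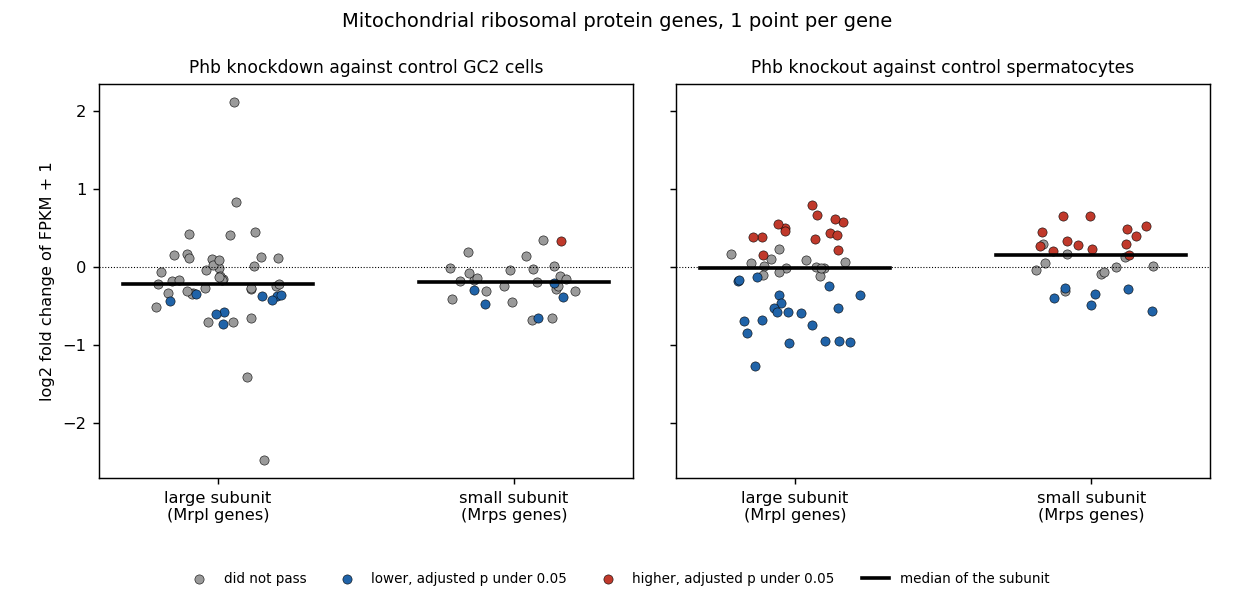
Log2 fold change of FPKM + 1 for each mitochondrial ribosomal protein gene, by subunit, in GC2 cells (left, knockdown over control) and spermatocytes (right, knockout over control). Points are genes, coloured by the limma test; bars are medians. In GC2 cells the blue points (14 falls) lie in both subunits. In spermatocytes 21 of the 27 falls and 14 of the 27 rises are large subunit genes, which are 49 of the 78 members.

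The 8 largest falls that passed the test were Mrpl35, Mrps6, Mrpl30, Mrpl13, Mrps18a, Mrpl21, Mrpl44 and Mrps16. Mrpl30 (chromosome 1, 37890477 to 37898535, plus strand, GENCODE M21 on GRCm38) is a large subunit protein with a bacterial counterpart. It had 16.18, 15.02 and 14.93 FPKM in knockdown and 26.73, 22.78 and 22.34 FPKM in control cells, a log2 fold change of -0.60 (SE 0.084, limma adjusted p = 0.0066). All knockdown libraries lay below all control libraries. Mrpl13 (chromosome 15, 55534094 to 55557748, minus strand) had 9.61, 9.56 and 9.0 FPKM in knockdown and 15.88, 14.56 and 13.23 FPKM in control cells, a log2 fold change of -0.58 (SE 0.077, limma adjusted p = 0.0058). Mrpl44, which carries a ribonuclease III-like fold, had 11.03, 10.58 and 10.85 FPKM in knockdown and 14.46, 15.58 and 14.59 FPKM in control cells. Its log2 fold change was -0.43 (SE 0.050, limma adjusted p = 0.0040), and the knockdown libraries differed among themselves by far less than they did from the controls. Mrps16, a small subunit protein with a bacterial counterpart, had 10.35, 10.08 and 9.78 FPKM in knockdown and 13.72, 13.86 and 12.72 FPKM in control cells (log2 fold change -0.38).

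Mrps18a had 9.14, 9.19 and 9.72 FPKM in knockdown and 12.66, 14.09 and 13.26 FPKM in control cells (log2 fold change -0.47, limma adjusted p = 0.0047). It is 1 of 3 paralogs of the bacterial S18 protein, and structures of the mammalian ribosome place it in the large subunit despite its name. Mrpl21 had 28.96, 25.58 and 25.59 FPKM in knockdown and 40.8, 34.32 and 34.58 FPKM in control cells (log2 fold change -0.44), and lost its call without library 2 or 3 of either group. Mrpl35 had the largest fold change of those that passed, -0.74, with 4.34, 3.83 and 6.57 FPKM in knockdown and 8.81, 8.4 and 8.81 FPKM in control cells. Its limma adjusted p was 0.035, and it kept its call only in the fit without the third knockdown library among the 6 that leave out 1 library. The row of Mrps6 also names Slc5a3, a sodium-coupled inositol transporter gene that overlaps it, so its value of 1.58 ± 0.186 FPKM in knockdown and 3.07 ± 0.0723 FPKM in control cells cannot be given to either gene alone. The rows of Mrpl53 and Mrpl2, also lower, are shared in the same way with Ccdc142 and Gm42688, and with Cul7. Mrpl32, Mrpl17, Mrps9 and Mrps26 complete the 14. Of the 14 falls, 11 passed under quantile normalization, median centring and removal of the mitochondrially encoded rows alike. Mrps9 and Mrps26 passed under none of these scalings, and Mrpl2 passed with median centring alone. Among the 6 fits without 1 library, Mrps26 lost its call in all 6 and Mrps9 and Mrpl2 in 5 each. The only rise was that of Mrps15, the counterpart of a bacterial protein that binds early in small subunit assembly, with 22.35, 25.21 and 23.72 FPKM in knockdown and 17.81, 18.45 and 19.75 FPKM in control cells (log2 fold change 0.33, limma adjusted p = 0.021); it lost its call without control library 1 or 2 and without knockdown library 2 or 3.

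**Figure D3:**
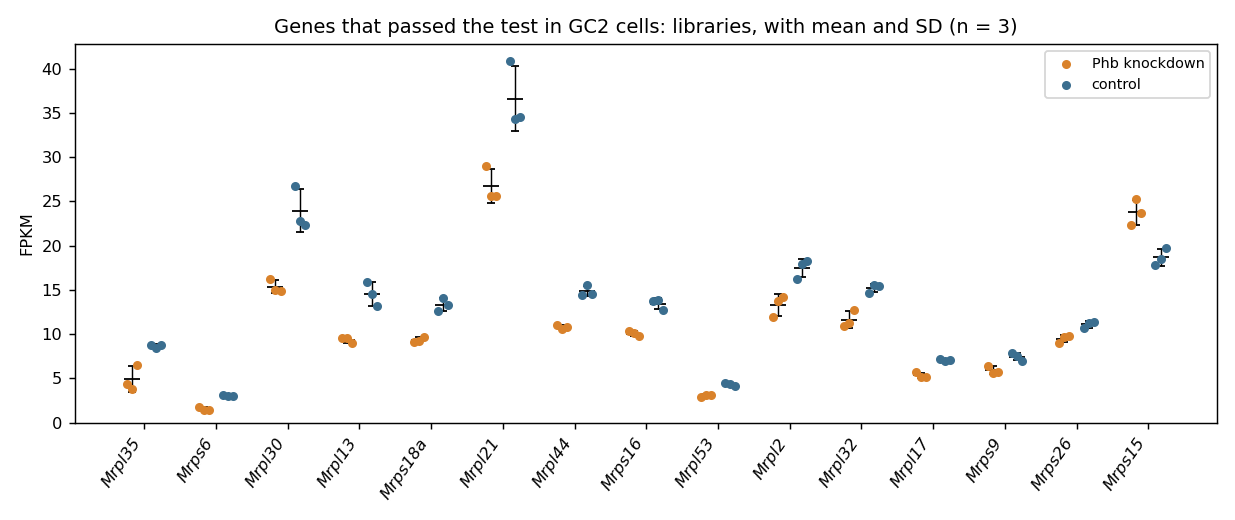
FPKM of the 15 genes that passed the test in GC2 cells, ordered by log2 fold change. Points are libraries (orange, Phb knockdown; blue, control), bars are mean and SD over 3. In each gene the groups do not overlap; Mrps15, at the right, is the gene that was higher in knockdown.

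Promoter sequences are shown for members that fell in GC2 cells, so that the letters around their start sites can be read beside the values. The share of members that fell there, 18.2%, was near the 13.9% of all rows. RefSeq start sites gave a promoter, 250 bases before to 50 after the start, for 69 of the 78 members and 27025 genes. Nuclear respiratory factor 1 (NRF1) is a known activator of nuclear genes for mitochondrial proteins. Its palindrome-like motif, with any base allowed at 1 position and searched on both strands, was in 18.8% of member promoters and in 5.19% of all promoters. Of the 13 members with a promoter that fell in GC2 cells 6 held it, as did 6 of 54 that did not pass the test. The strict NRF1 palindrome, which is 1 form of the same motif, was in 4.35% of member promoters and 1.07% of all. The GABPA motif CCGGAAGT was in 17.4% of member promoters and 4.31% of all. The YY1 motif AAGATGG was in 18.8% of member promoters and 7.28% of all, and the longer YY1 motif that extends it, in 7.25% of member promoters and 0.995% of all. Below are the windows of the 6 genes with the NRF1 motif, on GRCm38.p6 and each on its gene's strand, 5′ to 3′, with the match in capitals. The windows of Mrpl17, Mrpl30, Mrpl32 and Mrpl44 end at the base before the start site, and those of Mrps26 and Mrps9 end with the match, which runs over the start site. Mrps26 and Mrps9 are those that lost their call under each scaling.
Mrpl17 (chr7:105811088-105811157, minus): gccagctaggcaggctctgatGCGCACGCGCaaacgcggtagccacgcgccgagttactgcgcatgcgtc
Mrpl30 (chr1:37890389-37890476, plus): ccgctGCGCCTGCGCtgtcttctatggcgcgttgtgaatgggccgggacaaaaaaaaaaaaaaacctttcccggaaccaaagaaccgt
Mrpl32 (chr13:14613038-14613129, minus): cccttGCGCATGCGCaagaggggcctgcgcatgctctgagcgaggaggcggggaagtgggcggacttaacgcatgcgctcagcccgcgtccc
Mrpl44 (chr1:79775948-79776017, plus): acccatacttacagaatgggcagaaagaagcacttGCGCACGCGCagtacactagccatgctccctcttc
Mrps26 (chr2:130563687-130563770, plus): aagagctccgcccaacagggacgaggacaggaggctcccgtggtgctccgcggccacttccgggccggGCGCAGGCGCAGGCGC
Mrps9 (chr1:42851163-42851237, plus): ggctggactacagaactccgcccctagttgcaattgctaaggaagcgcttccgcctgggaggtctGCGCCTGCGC
The match begins 83 bases before the start site in Mrpl30, 87 in Mrpl32, 49 in Mrpl17 and 35 in Mrpl44, and Mrps26 holds overlapping matches. The longer YY1 motif was found just downstream of the start in Mrpl35 and Mrps18a, shown in windows of 30 bases.
Mrpl35 (chr6:71823736-71823765, minus): ctgcAAGATGGCGGcttccatcttcacggg
Mrps18a (chr17:46111011-46111040, plus): ttccAAGATGGCGGccctcagggctctggt
In spermatocytes the NRF1 motif was in 5 of 25 members that rose, 5 of 23 that fell and 3 of 21 that did not pass. A match is a description of these letters and not of binding.

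Some members differed many-fold among libraries of 1 GC2 group. Mrpl50 had 33.79, 1.79 and 1.76 FPKM in knockdown and 36.78, 35.12 and 32.89 FPKM in control cells. Mrpl34 had 0.13, 0.55 and 23.12 FPKM in knockdown and 0.54, 22.02 and 21.47 FPKM in control cells. Mrpl36 had 4.04, 3.68 and 0.11 FPKM in knockdown and 0.06, 0.09 and 8.49 FPKM in control cells. None of the 3 passed the test. Among members that reached 5 FPKM, 8 of 66 in knockdown and 12 of 68 in control cells differed more than 2-fold between libraries of the group, beside 12.3% and 13.0% of all such rows. In spermatocytes it was 0 of 64 members in knockout and 1 of 67 in control, Mrps30. None of the 15 members that passed in GC2 cells was among those that differed more than 2-fold.

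In spermatocytes, 27 of the 78 members fell and 27 rose in Phb knockout. Over all 15957 rows tested, 79.4% passed, 38.5% downwards and 40.9% upwards, so that 34.6% of members in each direction was not above the background. Of the 49 large subunit genes 21 fell and 14 rose, with a median log2 fold change of -0.02, and of the 29 small subunit genes 6 fell and 13 rose, with a median of 0.15, beside 0.05 for all rows. In 56 of the 78 members the groups did not overlap, beside 81.8% of all rows. The directions depend in part on scaling. The median over all rows shifted up by 0.16 with median centring and by 0.23 with quantile normalization. The members then gave 20 falls and 37 rises, or 22 falls and 35 rises. The shares of all rows under these scalings are not given here, so those counts cannot be read against 38.5% and 40.9%. All 27 rises and 20 of the 27 falls passed under both of these scalings and without the mitochondrially encoded rows, and 17 of those 20 falls were large subunit genes. With median centring, 3 small subunit genes fell.

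The largest falls were those of Mrpl39, Mrpl51, Mrpl1, Mrpl53, Mrpl54, Mrpl47, Mrpl35 and Mrpl24, all of the large subunit. Mrpl39 (chromosome 16, 84717576 to 84735742, minus strand), a mitochondria-specific protein related to threonyl-tRNA synthetase, had 14.06, 13.75 and 15.21 FPKM in knockout and 34.26, 37.21 and 36.26 FPKM in control spermatocytes. Its log2 fold change was -1.27 (SE 0.050, limma adjusted p = 1.7e-06), the largest of any member that passed, and the groups lay far apart. Mrpl54 (chromosome 10, 81264713 to 81266934, minus strand), mitochondria-specific, had 20.75, 22.58 and 20.22 FPKM in knockout and 41.39, 41.33 and 42.07 FPKM in control spermatocytes, a log2 fold change of -0.94 (SE 0.044, limma adjusted p = 3.7e-06). Mrpl1, the counterpart of the bacterial protein of the mobile L1 stalk, had 4.1, 5.61 and 5.41 FPKM in knockout and 10.68, 10.75 and 10.61 FPKM in control spermatocytes (log2 fold change -0.96). Mrpl24, the most abundant member there, had a log2 fold change of -0.69 (SE 0.034, limma adjusted p = 4.8e-06). Mrpl47 had 4.81, 4.79 and 4.67 FPKM in knockout and 9.04, 9.17 and 9.85 FPKM in control spermatocytes, and Mrpl35 had 5.97, 6.39 and 5.82 FPKM in knockout and 10.58, 10.99 and 10.99 FPKM in control spermatocytes. The row of Mrpl51, with 10.06, 10.72 and 10.63 FPKM in knockout and 22.02, 21.68 and 20.95 FPKM in control spermatocytes, also names Mir3098, and that of Mrpl53, with 5.74, 6.03 and 5.47 FPKM in knockout and 12.27, 11.68 and 12.23 FPKM in control spermatocytes, names Ccdc142 and Gm42688. In all 8 genes the knockout libraries lay below the control libraries.

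The largest rises were those of Mrpl27, Mrpl50, Mrps6, Mrps21, Mrpl36, Mrpl34, Mrpl58 and Mrps17. Without rescaling, the log2 fold changes of the members ran from -1.27 to 0.80. Mrpl27 (chromosome 11, 94653767 to 94660089, plus strand), whose bacterial counterpart lies next to the peptidyl transferase centre, had 17.23, 16.92 and 15.29 FPKM in knockout and 9.62, 8.97 and 8.59 FPKM in control spermatocytes. Its log2 fold change was 0.80 (SE 0.061, limma adjusted p = 3.8e-05). Mrpl50, a mitochondria-specific protein, had 12.59, 12.47 and 13.7 FPKM in knockout and 7.83, 7.69 and 7.83 FPKM in control spermatocytes (log2 fold change 0.66). Both groups were tight, while its GC2 libraries were not. Mrpl36, the counterpart of a small zinc-binding bacterial protein, had 23.32, 24.12 and 24.2 FPKM in knockout and 14.88, 15.11 and 15.86 FPKM in control spermatocytes (log2 fold change 0.61). Mrpl34 had 23.02, 23.36 and 25.2 FPKM in knockout and 17.39, 15.62 and 14.33 FPKM in control spermatocytes (log2 fold change 0.57). Mrps21, the most abundant small subunit gene, had 37.52, 40.22 and 41.66 FPKM in knockout and 28.38, 18.55 and 29.7 FPKM in control spermatocytes (log2 fold change 0.65, limma adjusted p = 0.015), with 1 control library well below the others. Mrps17 had 4.74, 4.17 and 4.61 FPKM in knockout and 3.14, 2.6 and 2.81 FPKM in control spermatocytes (log2 fold change 0.52).

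**Figure D4:**
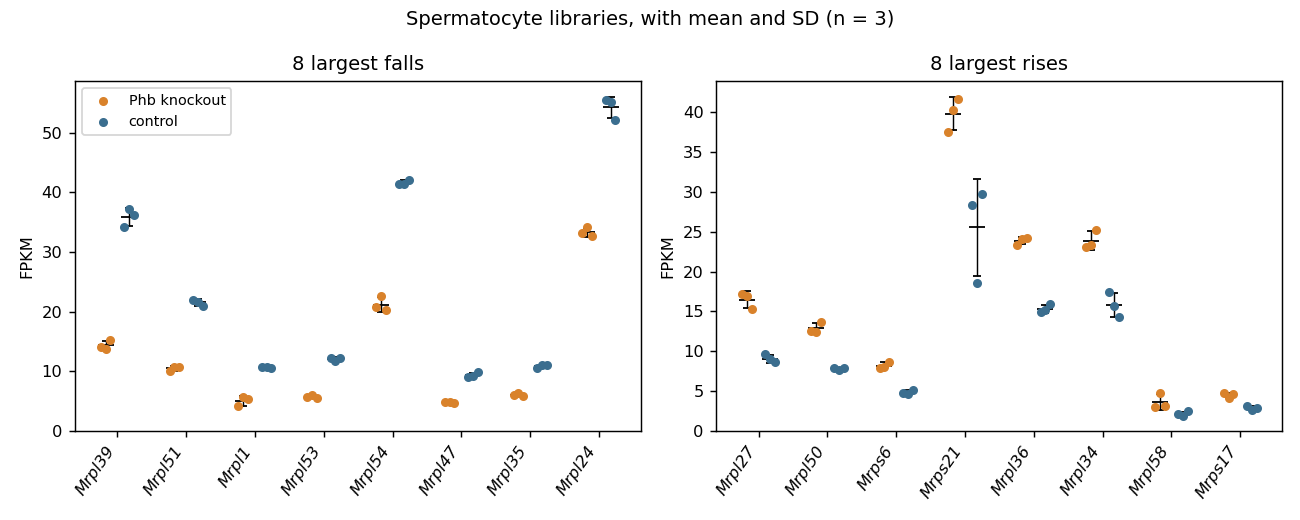
FPKM of the 8 members with the largest falls (left) and the 8 with the largest rises (right) among those that passed the test in spermatocytes. Points are libraries (orange, Phb knockout; blue, control), bars are mean and SD over 3. The falls are all large subunit genes, and the groups overlap in none of the 16.

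Some members were chosen for their roles. Mrpl32, the substrate of the m-AAA protease, had 10.93, 11.3 and 12.69 FPKM in knockdown and 14.7, 15.54 and 15.43 FPKM in control GC2 cells (log2 fold change -0.36, limma adjusted p = 0.017). In spermatocytes it had 2.75, 3.74 and 3.99 FPKM in knockout and 2.61, 2.43 and 2.45 FPKM in control libraries (log2 fold change 0.35, limma adjusted p = 0.029). The GC2 call was lost without control library 2 or 3 or knockdown library 2, and the spermatocyte call was kept, among fits without 1 library, only without the first knockout library. Mrpl44 also fell in GC2 cells and rose in spermatocytes, with 17.05, 15.6 and 15.86 FPKM in knockout and 13.86, 14.4 and 15.05 FPKM in control libraries (log2 fold change 0.15, limma adjusted p = 0.024). That rise was lost without control library 1 or 2 or the first knockout library. Mrpl12, a protein of the L7/L12 stalk that also binds mitochondrial RNA polymerase, fell in spermatocytes, with 21.77, 20.62 and 24.28 FPKM in knockout and 33.08, 31.83 and 32.47 FPKM in control libraries (log2 fold change -0.53). In GC2 cells it had 52.1, 50.22 and 51.71 FPKM in knockdown and 30.55, 69.55 and 69.43 FPKM in control libraries, where 1 control library stands apart and the groups overlap.

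Mrpl58, a release factor relative built into the large subunit that frees stalled ribosomes, had 3.03, 4.79 and 3.09 FPKM in knockout and 2.07, 1.87 and 2.44 FPKM in control spermatocytes (log2 fold change 0.55, limma adjusted p = 0.019), a call lost without control library 1 or 2. Mrps12, the counterpart of a bacterial protein of the decoding centre, rose in spermatocytes, with 16.72, 17.66 and 17.95 FPKM in knockout and 12.17, 12.3 and 12.21 FPKM in control libraries (log2 fold change 0.48, limma adjusted p = 3e-05). Of the S18 paralogs, Mrps18b fell in spermatocytes, with 10.19, 11.98 and 9.14 FPKM in knockout and 13.95, 14.83 and 16.39 FPKM in control libraries (log2 fold change -0.49). Mrps18a had values of 7.44, 7.24 and 7.55 FPKM in knockout and 6.25, 7.91 and 8.2 FPKM in control spermatocytes, and Mrps18c shares its row with Gm43511 and did not pass in either comparison. Mrps36, now known as a subunit of the 2-oxoglutarate dehydrogenase complex, rose in spermatocytes, with 11.58, 12.46 and 9.9 FPKM in knockout and 7.94, 8.17 and 7.88 FPKM in control libraries. Mrps30, which structures place in the large subunit, had 3.71, 3.65 and 4.07 FPKM in knockout and 5.31, 3.82 and 2.33 FPKM in control spermatocytes, and the controls spread on both sides of the knockout libraries. Mrps34 shares its row with Nme3 and passed in neither comparison.

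The change in spermatocytes was set against the change in GC2 cells in 1 fit of all 12 libraries. That fit used 1 variance per gene for both kinds of sample, although libraries of a GC2 group differed more among themselves. Its p-values may therefore come out too small for genes whose GC2 libraries vary. The spermatocyte change was higher in 27 of 77 members (35.1%) and lower in 12 (15.6%), beside 38.0% and 22.9% of the 9666 genes tested in both, of which 60.9% passed in either direction. The large subunit had 14 higher and 11 lower of 48, and the small subunit had 13 higher and 1 lower of 29. By their calls in each comparison, Mrpl13, Mrpl35, Mrpl53 and Mrps26 fell in both, Mrpl2, Mrpl32, Mrpl44 and Mrps6 fell in GC2 cells and rose in spermatocytes, and 17 members passed in neither. The row used for Mrpl2 is shared with Cul7 in the GC2 table alone, the row of Mrps6 names further genes in spermatocytes and that of Mrpl51 names Mir3098 there alone, so these differences are not between like rows. The fall of Mrpl13 in spermatocytes (log2 fold change -0.18) did not pass under quantile normalization, median centring or removal of the mitochondrially encoded rows. That of Mrps26 did not pass under quantile normalization or median centring, and its GC2 fall under neither of these nor without the mitochondrially encoded rows. For Mrpl35 the changes were nearly equal, with a difference of -0.01 (SE 0.19, limma adjusted p = 0.97).

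Among the larger differences, Mrpl39 had -1.14 (SE 0.096, limma adjusted p = 3.7e-06): it fell in spermatocytes and had 13.39, 11.55 and 12.89 FPKM in knockdown and 14.36, 14.28 and 12.78 FPKM in control GC2 cells. Mrpl51 had a difference of -1.38 (SE 0.23), with 11.6, 6.95 and 12.32 FPKM in knockdown and 6.61, 8.0 and 7.33 FPKM in control GC2 cells. Mrpl24 had a difference of -0.85 (SE 0.056, limma adjusted p = 6.5e-07). It had 10.76, 10.29 and 10.67 FPKM in knockdown and 9.17, 9.64 and 9.18 FPKM in control GC2 cells, groups that did not overlap. Its GC2 log2 fold change of 0.16 did not pass (limma adjusted p = 0.061), but passed as a rise under each of the 3 scalings. Among positive differences, Mrpl27 had 1.46 (SE 0.38). It had 12.36, 12.17 and 12.85 FPKM in knockdown and 13.7, 36.18 and 16.54 FPKM in control GC2 cells, where 1 control library stands apart. The difference of Mrps6 was 1.31, on rows that are not alike. Mrpl10, a stalk base protein, had a difference of 1.14 (SE 0.31). Mrpl10 had 22.87, 24.49 and 22.24 FPKM in knockout and 16.66, 16.15 and 17.85 FPKM in control spermatocytes, and 7.84, 12.51 and 5.06 FPKM in knockdown and 13.07, 14.0 and 13.76 FPKM in control GC2 cells. The difference of 3.14 for Mrpl50 (SE 1.1, limma adjusted p = 0.033) and that of -2.79 for Mrpl41 (SE 0.77) rest on GC2 groups whose libraries differ many-fold, and that of Mrpl50 lost its call in 11 of the 12 fits that leave out 1 library. Mrpl41 had 14.73, 14.42 and 15.77 FPKM in knockdown and 3.72, 0.23 and 7.65 FPKM in control GC2 cells, and 20.48, 18.82 and 19.16 FPKM in knockout and 35.02, 31.81 and 28.9 FPKM in control spermatocytes. The difference of Mrpl54 was -1.04 (SE 0.40, limma adjusted p = 0.047) and passed in 2 of those 12 fits.

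**Figure D5:**
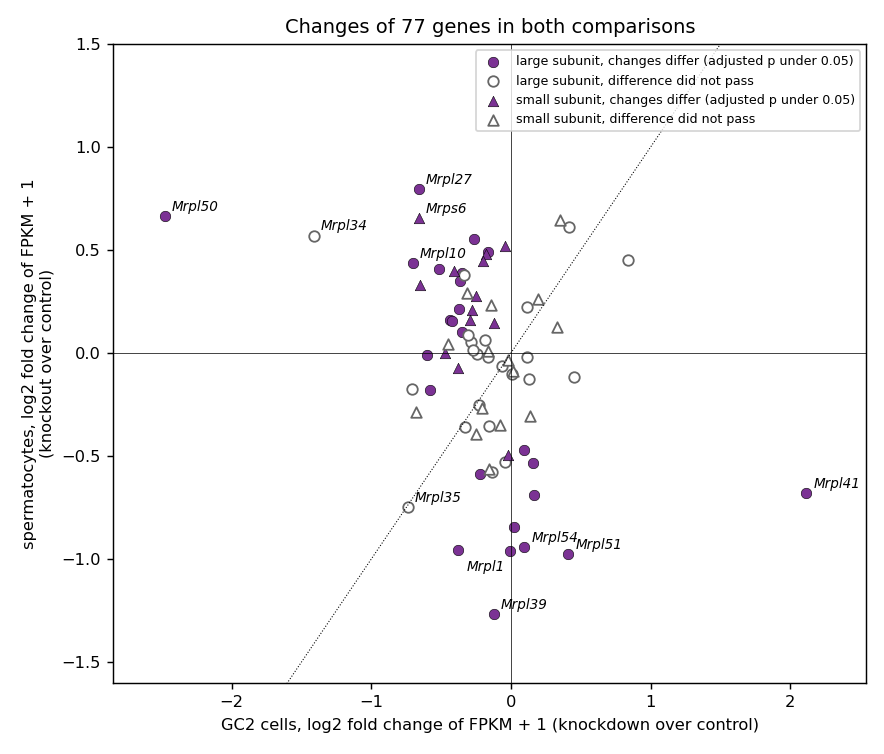
Log2 fold change of FPKM + 1 in spermatocytes (vertical, knockout over control) against that in GC2 cells (horizontal, knockdown over control) for 77 members. Filled points passed the test of the difference; the dotted line marks equal changes. Mrpl39, Mrpl51 and Mrpl54 lie far below the line and Mrpl27 and Mrps6 above it, while Mrpl35 lies on it.

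Many members share a start region with a gene on the other strand. In GENCODE M21, 33 of the 78 members (42.3%) had a protein-coding start on the opposite strand within 1000 bases, beside 10.9% of all 21951 protein-coding genes, and 36 members overlapped a gene on the other strand. Libraries were made with a kit that marks strand, but the sources used here do not say whether counting used it, so reads of such pairs may not be told apart. Of 31 pairs tested in spermatocytes both genes passed in 22, with the same direction in 10 and opposite directions in 12. Of all rows tested there, 79.4% passed. Pairs of other genes were not counted, so these counts are not a result about shared start regions. Mrpl10 rose while its neighbour Lrrc46, with a start 153 bases away, had 3.21, 3.25 and 3.44 FPKM in knockout and 310.75, 306.38 and 304.59 FPKM in control spermatocytes. Mrpl9 rose (log2 fold change 0.38) beside Oaz3, a spermatid antizyme gene, which had 0.4, 0.34 and 0.59 FPKM in knockout and 23.03, 22.79 and 21.86 FPKM in control spermatocytes. By contrast, Mrpl18 did not pass (log2 fold change -0.12) beside Tcp1, a chaperonin subunit gene that fell (log2 fold change -1.95). In GC2 cells both genes passed in 2 of 25 pairs tested, where 24.5% of all rows passed. In each of the 2 pairs both genes were lower. Mrpl30 stood beside Mitd1, a gene of cell division that had 4.11, 5.35 and 3.7 FPKM in knockdown and 16.27, 12.37 and 9.35 FPKM in control cells. Mrpl13 stood beside Mtbp, a gene of DNA replication start that had 11.98, 11.6 and 11.2 FPKM in knockdown and 17.96, 16.72 and 17.03 FPKM in control cells. Mrpl46 and Mrps11, the 1 pair of members that share a start region (412 bases apart), passed in neither comparison.

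Other genes were counted from lists of known function: mitochondrial translation, mitochondrial transcription and replication, regulators of mitochondrial gene expression, and prohibitins and membrane proteases. Phb and Phb2 were left out of the pooled counts. Of 72 tested in GC2 cells 12 fell and 1 rose, and of 75 tested in spermatocytes 21 fell and 32 rose, which became 17 falls and 43 rises with median centring and 15 falls and 46 rises with quantile normalization. Over all rows tested without rescaling, 13.9% fell and 10.7% rose in GC2 cells and 38.5% fell and 40.9% rose in spermatocytes. The counts without rescaling and those of the lists that follow can be read against these shares. Counts under other scalings or without 1 library cannot, since the shares of all rows in those fits are not given here. In spermatocytes the median over all rows moved up by 0.16 with median centring and by 0.23 with quantile normalization. The GC2 count of falls was 5, 3 and 6 without control library 1, 2 or 3, and 4 and 5 without knockdown library 2 or 3. Without the mitochondrially encoded rows the GC2 counts were 8 falls and 4 rises. That setting also brought the libraries to the same FPKM total. In GC2 libraries those rows made up only 0.0349% to 0.128% of FPKM, and the part of either step was not tested. Assembly and ribosomal RNA factors gave 5 falls and 1 rise of 31 in GC2 cells and 10 falls and 12 rises of 31 in spermatocytes. Pnpt1, a polyribonucleotide nucleotidyltransferase, had 17.45, 20.62 and 19.69 FPKM in knockdown and 29.48, 32.79 and 32.26 FPKM in control GC2 cells (log2 fold change -0.68, limma adjusted p = 0.0039). Gtpbp10, a GTPase of large subunit assembly, also fell there (log2 fold change -0.42), a call lost without the filter on low values, with the replicate block and without library 2 or 3 of either group. In spermatocytes Mrm1, a methyltransferase of the large ribosomal RNA, had 8.5, 6.88 and 7.59 FPKM in knockout and 2.66, 2.87 and 2.62 FPKM in control libraries (log2 fold change 1.22), and Nsun4, a methyltransferase that acts in subunit joining, fell (log2 fold change -0.77).

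Translation factors gave 4 falls and 0 rises of 16 in GC2 cells, with Guf1 (-0.37) and Mtfmt, the formyltransferase of the initiator tRNA (-0.32, on a row shared with Spg21, a call lost without the third control library), and 4 falls and 7 rises of 17 in spermatocytes. Oxa1l, which inserts newly made proteins into the inner membrane, had 16.23, 15.39 and 15.84 FPKM in knockout and 8.61, 8.05 and 8.7 FPKM in control spermatocytes (log2 fold change 0.83, limma adjusted p = 4.7e-06). Mtrf1l, a release factor, rose by 0.72 on the log2 scale. Subunits without an Mrp name gave no call among 5 in GC2 cells, and in spermatocytes Dap3 (-0.44) and Aurkaip1 (-0.76) fell and Gadd45gip1 rose (0.26). Mitochondrial transcription and replication genes gave 1 fall of 6 in GC2 cells, that of the elongation factor Tefm (-0.63, lost without control library 1 or 2 or knockdown library 1 or 3), and 2 falls and 4 rises of 8 in spermatocytes, with Polg lower (-0.37) and Twnk higher (0.31). Of the regulators of mitochondrial gene expression, Myc fell in GC2 cells (-0.37), a call lost without any 1 control library and without the second knockdown library. It rose in spermatocytes, where it had 8.4, 8.15 and 8.01 FPKM in knockout and 1.62, 1.24 and 1.73 FPKM in control libraries. Yy1 rose in spermatocytes (0.45). In the list of prohibitins and membrane proteases, 2 of 8 fell in GC2 cells, Phb and Yme1l1 (-0.23). The call of Yme1l1 was lost under each of the 3 scalings, with the replicate block, and in each fit without 1 library except that without the first knockdown library. In spermatocytes 3 of 8 fell and 5 rose, with Yme1l1 lower (-0.37) and Stoml2, a relative of the prohibitins, higher (0.55). Phb2 had 29.86, 30.39 and 31.42 FPKM in knockdown and 29.16, 33.5 and 31.72 FPKM in control GC2 cells, and rose by 0.22 on the log2 scale in spermatocytes, where its row also names Gm23547.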

How the data were processed

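The authors deposited 1 FPKM value per row and library, which were used as given. The submitters' processing notes name HISAT2 2.1.0, DESeq, and both GRCm38 and mm10, without their roles. The sources used here name no quantifier, annotation or filter. There were 25911 GC2 rows and 36987 spermatocyte rows. Rows without a gene name (1200 and 164) were left out of the tests. FPKM totals were 194948.6 to 201776.3 (GC2 knockdown), 203973.4 to 206711.4 (GC2 control), 290426.7 to 297361.6 (knockout) and 289706.8 to 292930.5 (spermatocyte control). From the steps between low values, spermatocyte knockout libraries were estimated such that 1 fragment per kilobase was worth 0.0641 to 0.0889 FPKM, and in controls 0.0629 to 0.0654 FPKM; the depth of the GC2 libraries is unknown. Correlations between libraries of a group, across rows, were 0.924 to 0.937 in GC2 and 0.984 to 0.988 in spermatocytes, and across members 0.792 to 0.902 in GC2 and 0.982 to 0.989 in spermatocytes.

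Rows with at least 1 FPKM in 3 of the 6 libraries compared were tested with limma 3.58.1 (R 4.3.3, trended variance) on log2(FPKM + 1), per kind of sample, and for the difference of both changes over all 12 libraries. The scripts were tested on simulated data. The members, lists and named genes were chosen with earlier results of these data known. Named were the 8 largest falls and rises per comparison, the 3 most abundant genes per subunit, the 4 largest differences each way, members fixed for a role, the 2 called genes with the smallest adjusted p per list, and Phb and Phb2; Mrpl9, Mrpl17, Mrpl46, Mrpl2, Mrps9, Mrps11, Mrps26 and the neighbouring genes were named after their values were seen. Alternatives were another pseudocount, other filters, quantile normalization, median centring, removal of mitochondrially encoded rows, a replicate block, rows summed per name, subunits by structure, own rows alone and leaving out each library. After removal of the mitochondrially encoded rows, the libraries compared were scaled to the same FPKM total. Same-numbered libraries were not treated as pairs. Gene positions are from GENCODE M21, promoters from RefSeq (GRCm38.p6). Figures used matplotlib 3.10.9 in Python 3.11.15.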

Additional observations from a re-analysis of the deposited data

Results flagged for a closer look

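The change in spermatocytes differed from that in GC2 cells for 26 of the named members. The test was limma on the difference over 12 libraries, with Benjamini-Hochberg adjustment and 1 variance per gene for both kinds of sample. Some members were named for a large change or difference, so this count does not stand for the members as a whole. Values are the spermatocyte log2 fold change minus the GC2 log2 fold change. Among large subunit genes the difference was positive for Mrpl50 (3.14), Mrpl27 (1.46), Mrpl10 (1.14), Mrpl58 (0.82), Mrpl32 (0.71), Mrpl21 (0.60), Mrpl30 (0.59), Mrpl44 (0.58) and Mrpl13 (0.40). It was negative for Mrpl41 (-2.79), Mrpl51 (-1.38), Mrpl39 (-1.14), Mrpl54 (-1.04), Mrpl1 (-0.95), Mrpl47 (-0.87), Mrpl24 (-0.85), Mrpl53 (-0.57) and Mrpl20 (-0.56). Among small subunit genes it was positive for Mrps6 (1.31), Mrps7 (0.98), Mrps12 (0.66), Mrps36 (0.65), Mrps17 (0.56), Mrps18a (0.47) and Mrps16 (0.31), and negative for Mrps18b (-0.48). Over all genes tested the median difference was 0.22, and 38.0% passed with a higher and 22.9% with a lower change in spermatocytes. Over all 77 members tested the median difference was 0.25, and 35.1% passed with a higher and 15.6% with a lower change. The difference of Mrpl54 did not pass in 10 of the 12 fits that leave out 1 library, nor with a pseudocount of 0.1, quantile normalization or median centring, and that of Mrpl47 did not pass without the first GC2 knockdown library or the third spermatocyte control library.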

How the results depend on the processing

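In GC2 cells 14 falls and 1 rise became 8 to 14 falls and 0 to 2 rises when 1 library was left out, with 5 to 9 falls and 0 to 1 rises in the large subunit and 3 to 5 falls and 0 to 1 rises in the small. The rises numbered 2 with the filter at 5 FPKM, under each of the 3 scalings and with rows summed per name. In these 5 settings Mrpl24 passed beside Mrps15 (limma adjusted p for Mrpl24 0.0185 to 0.0420). With median centring 1 large subunit gene rose and 3 small subunit genes fell in GC2 cells, and 3 small subunit genes fell in spermatocytes. The large minus small subunit median in GC2 cells ranged from -0.0881 to 0.0946 without 1 library. For the other listed genes, pooled over the lists, in GC2 cells, rises ranged from 0 to 2 and falls from 3 to 9 without 1 library, and rises numbered 2 with the 5 FPKM filter, 3 with quantile normalization, 3 with median centring and 4 without mitochondrially encoded rows. Their falls in spermatocytes numbered 12 with the 5 FPKM filter. The cause of these shifts was not tested, except that the 5 FPKM filter and the fits without a library test fewer genes or samples. Shares of all rows in these settings are not given here, so these counts cannot be read against the background.

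With the replicate number as a block, members gave 13 falls and 1 rise in GC2 cells and 27 falls and 25 rises in spermatocytes, the difference passed for 28 members upwards and 12 downwards, and the other listed genes had 6 falls in GC2 cells. The shares of all rows with the block are not given here, so these counts cannot be read against the background. The labels tie no number to a culture or animal. Same-numbered libraries deviated together with correlations of 0.124, 0.078 and 0.0607 in GC2 cells, where each library correlated best with its own number, a hint from the data and not the design, and of 0.00744, -0.0539 and 0.00738 in spermatocytes.

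Leaving out rows shared with another gene changed the large subunit share to 0.362% in knockdown and 0.380% in control GC2 cells and to 0.221% in knockout and 0.252% in control spermatocytes, and the small subunit share to 0.180% in knockdown and 0.196% in control GC2 cells and to 0.0977% in knockout and 0.0891% in control spermatocytes. By structure, the small subunit share was 0.175% in knockdown and 0.186% in control GC2 cells and 0.0988% in knockout and 0.0904% in control spermatocytes, and the large subunit share 0.433% in control GC2 cells. Without mitochondrially encoded rows in the total, the spermatocyte shares were 0.280% in knockout and 0.307% in control for the large subunit, and 0.130% in knockout and 0.111% in control for the small.

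Phb in spermatocytes did not pass at -0.0702 (quantile), -0.0235 (centring) and -0.12 (without mitochondrially encoded rows). Signs turned only for values that had not passed. In GC2 cells, in the order quantile, centring and without mitochondrially encoded rows, Phb2 gave 0.00363, 0.0053 and 0.037, Mrpl1 0.035, 0.035 and 0.060, Mrps18b 0.036, 0.027 and 0.058 and Mrps18c 0.031, 0.022 and 0.049. Mrpl12 gave 0.0011 with centring and 0.034 without those rows, and Mrps17 0.0057 with quantile and 0.022 without those rows. In spermatocytes, in the same order, Mrpl30 gave 0.11, 0.15 and 0.054 and Mrps18c 0.11, 0.13 and 0.027, while quantile and centring gave 0.049 and 0.090 for Mrps16 and 0.0011 and 0.045 for Mrpl18. Of these, Mrpl30 passed as a rise in at least 1 setting that turned its sign (lowest limma adjusted p = 0.025). The difference of Mrpl35 was 0.014 with a pseudocount of 0.1, 0.082 with quantile and 0.11 with centring, that of Mrps18c 0.079 with quantile and 0.10 with centring, and that of Mrpl36 -0.58 with a pseudocount of 0.1.

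Without 1 library, GC2 values ranged from -0.0907 to 0.00624 for Phb2, -0.43 to 0.15 for Mrpl12, -0.0632 to 0.0446 for Mrpl1, -0.10 to 0.43 for Mrpl54, -0.26 to 0.19 for Mrpl47, -0.12 to 1.13 for Mrpl36, -0.0751 to 0.00631 for Mrps17, -0.0786 to 0.0434 for Mrps18b and -0.14 to 0.0668 for Mrps18c. Spermatocyte values ranged from -0.0324 to 0.0227 for Mrpl30, -0.11 to 0.0652 for Mrps18a, -0.12 to 0.0328 for Mrps18c and -0.20 to 0.26 for Mrps30. Differences ranged from -0.14 to 0.18 for Mrpl35, -0.85 to 0.73 for Mrpl36 and -0.10 to 0.11 for Mrps18c. The unknown depth of the GC2 libraries limits what can be said of low genes there.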
